A study of Homo sapiens with 2 samples.

Results

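The main cluster of replication-dependent histone genes lies on the short arm of chromosome 6, and its nascent strand intervals were taken as all intervals whose midpoint falls between positions 26000001 and 27900000 of chromosome 6 in the genome build hg19. The members were chosen by position alone. They number 57 of the 161869 intervals named in the deposited lists. Histone genes lie mainly in a first stretch from 26000001 to 26300000, which held 5 intervals, and in a second stretch from 27100001 to 27900000, which held 29. The part between, from 26300001 to 27100000, held 23. The 1 Mb on either side, from 25000001 and up to 28900000, held 16 and 17 intervals and served as flanks. The intervals come from nascent strand sequencing, in which short new DNA strands are kept because the RNA primer at their end shields them from an exonuclease. The cells were U2OS, an osteosarcoma line described as wild type, grown in RPMI with serum, held at the border of G1 and S by a double thymidine block and collected at the 2 hour point. The 2 libraries form 1 group, no label states that they came from separate cultures, and they enter each value as 1 intersected set. Therefore no comparison between stretches could be tested against replicate error, and the values below are descriptions. The number of reads behind a peak is unknown.

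Replication-dependent histone genes supply the core histones H2A, H2B, H3 and H4 and the linker histone H1 that package newly made DNA, and their mRNA accumulates in S phase. Their genes are short, lack introns in most cases and stand close together in clusters, and their mRNAs end in a stem-loop in place of a poly(A) tail. The protein NPAT gathers at these clusters in a nuclear structure, the histone locus body. Replication origins fire in a set order through S phase, and the authors sorted the intervals into timing classes named from very early to very late by a rule not stated in the sources used here.

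The histone genes of this cluster were listed by symbol, 32 for the first stretch and 21 for the second. All 53 were found in RefSeq's gene table for GRCh38.p14, which gave names and gene order only, since its coordinates are of another build than the peak lists. The list holds 6 H1, 11 H2A, 14 H2B, 10 H3 and 12 H4 genes. The first run goes from H1-1, a linker histone gene, to H4C8, and its protein-coding genes are broken only by HFE, a regulator of iron uptake that lies between H1-2 and H4C3. It includes H1-6, known as a linker histone of the testis. The 9 protein-coding genes between the runs are the butyrophilins BTN3A2, BTN2A2, BTN3A1, BTN3A3, BTN2A1 and BTN1A1, which are membrane proteins, and HMGN4, ABT1 and ZNF322. The second run has 5 histone genes from H2BC11 to H2AC12, then 5 other protein-coding genes including PRSS16, ZNF391 and ZNF184, then 16 histone genes from H2BC13 to H2BC17. Whether an interval lies at the start of a given gene was not analysed here. Nor was it determined which intervals of the second stretch lie among histone genes and which among these 5 other genes. The values of that stretch below therefore describe the whole stretch and not its histone genes alone.

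Promoter sequences are shown for histone genes of these stretches, 1 for each of 3 gene types. Each is the 250 bases before the gene start from RefSeq (GRCh38.p14), 5′ to 3′ on the gene's strand, with capitals marking the motifs searched on both strands. These are the CCAAT box (CCAAT, bound by NF-Y), the TATA box (TATAAA), the octamer of H2B promoters (ATGCAAAT, bound by OCT1), the H1 box (AAACACA) and the H4 element (GGTCC, bound by HiNF-P). TATAAA on opposite strands can overlap, as in TTTATAAA.
H2BC11: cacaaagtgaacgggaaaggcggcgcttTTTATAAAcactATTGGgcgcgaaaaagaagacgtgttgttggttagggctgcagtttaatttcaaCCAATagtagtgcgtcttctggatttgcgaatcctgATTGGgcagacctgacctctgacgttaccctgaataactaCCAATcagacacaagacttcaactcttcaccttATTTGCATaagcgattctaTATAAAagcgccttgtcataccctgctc
H1-1: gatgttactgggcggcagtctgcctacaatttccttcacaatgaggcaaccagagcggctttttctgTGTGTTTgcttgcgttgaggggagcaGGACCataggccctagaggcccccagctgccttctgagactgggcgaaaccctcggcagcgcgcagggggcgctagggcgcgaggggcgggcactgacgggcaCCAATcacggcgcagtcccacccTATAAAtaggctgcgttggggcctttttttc
H4C2: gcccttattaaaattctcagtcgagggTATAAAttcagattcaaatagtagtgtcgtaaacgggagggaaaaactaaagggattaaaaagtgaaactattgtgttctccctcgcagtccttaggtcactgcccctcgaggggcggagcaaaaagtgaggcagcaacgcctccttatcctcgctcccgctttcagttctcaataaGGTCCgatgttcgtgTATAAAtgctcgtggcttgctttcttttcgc
The H2BC11 window held the octamer 47 bases and a TATA box 28 bases before the start, counted to the first base of the match, and 4 CCAAT boxes. H1-1 held an H1 box 183 bases, an H4 element on the opposite strand (GGACC) 157 bases, a CCAAT box 54 bases and a TATA box 31 bases before the start. H4C2 held the H4 element 46 bases and a TATA box 31 bases before the start, and no CCAAT box.

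The octamer, the H1 box and the H4 element were unevenly spread over the histone types, while the TATA box stood in windows of every type. Each of the 5 motifs was present in both runs of the cluster. Windows were found for 48 of the 53 genes, and for a gene with several starts the one listed first was used. The CCAAT box stood in 41 of 48 windows (85.4%), against 33.0% of all 27305 promoters. It was in all 6 H1, 10 H2A, 14 H2B and 8 H3 windows but in 3 of 10 H4 windows. The TATA box stood in 31 of 48 (64.6%, against 11.1% of all promoters), from 50.0% of H1 to 71.4% of H2B windows. The octamer was in 11 of 14 H2B and 8 of 10 H2A windows, against 1.66% of all promoters. For every motif the H2A count is not independent of the H2B count. The reason is that in 8 divergent pairs of neighbouring H2A and H2B genes the 2 windows share 193 to 247 bases. The totals over 48 windows and the GC values below count such bases more than once. The H1 box was in all 6 H1 windows and in no other histone window, against 4.95% of all promoters. The H4 element was in 9 of 10 H4 windows and in 3 of 8 H3, 2 of 14 H2B, 1 of 6 H1 and 0 of 10 H2A windows, against 40.4% of all promoters. The median GC content of the histone windows was 41.2% (quartiles 38.8% and 46.8%), against 58.0% (46.0% and 67.6%) for all promoters. A match is a description of letters and not a binding site.

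**Figure D1:**
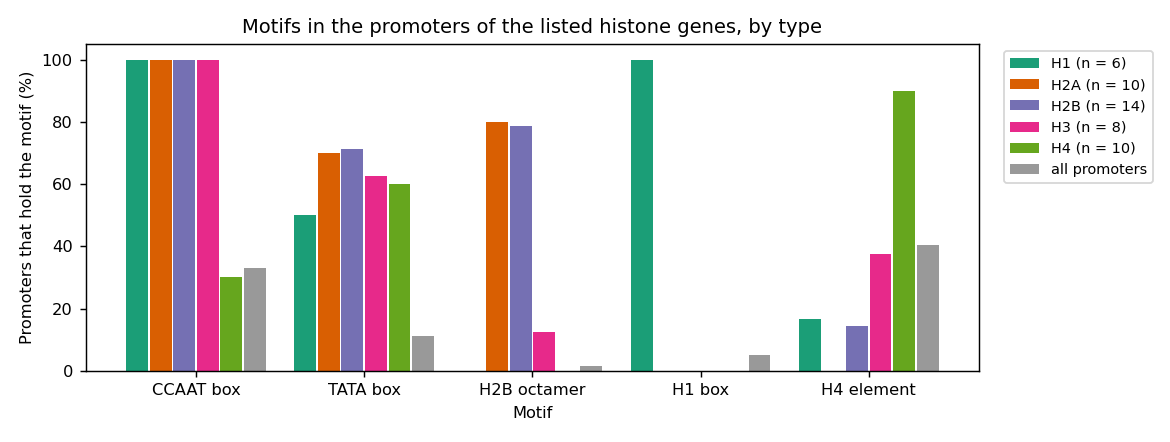
Share of promoter windows (in %, y axis) that hold each motif (x axis), by histone type (coloured bars, n in the legend) and for all promoters (grey bars). The H1 box is in 100.0% of H1 windows and in no window of the other types, and the H4 element is in 90.0% of H4 windows.

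The 2 histone stretches differed from each other in how many intervals they held. The first held 5 intervals, or 16.7 per Mb (exact 95% Poisson interval 5.41 to 38.9), close to the 16.5 per Mb (11.4 to 23.2) of both flanks. The second held 29, or 36.2 per Mb (24.3 to 52.1), and the part between held 28.8 per Mb (18.2 to 43.1). Both histone stretches together held 30.9 per Mb. This was 1.08 times the density of the part between (exact 95% interval of the ratio 0.615 to 1.91) and 1.87 times that of the flanks (1.13 to 3.12). The first stretch alone was at 0.580 times the part between and 1.01 times the flanks, and the second alone at 1.26 and 2.20 times. Chromosome 6 as a whole held 33.9 intervals per Mb and chromosomes 1 to 22 and X held 54.8, counted from the first to the last interval of each chromosome. These intervals cover counting error only and are too narrow where neighbouring intervals are not independent.

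**Figure D2:**
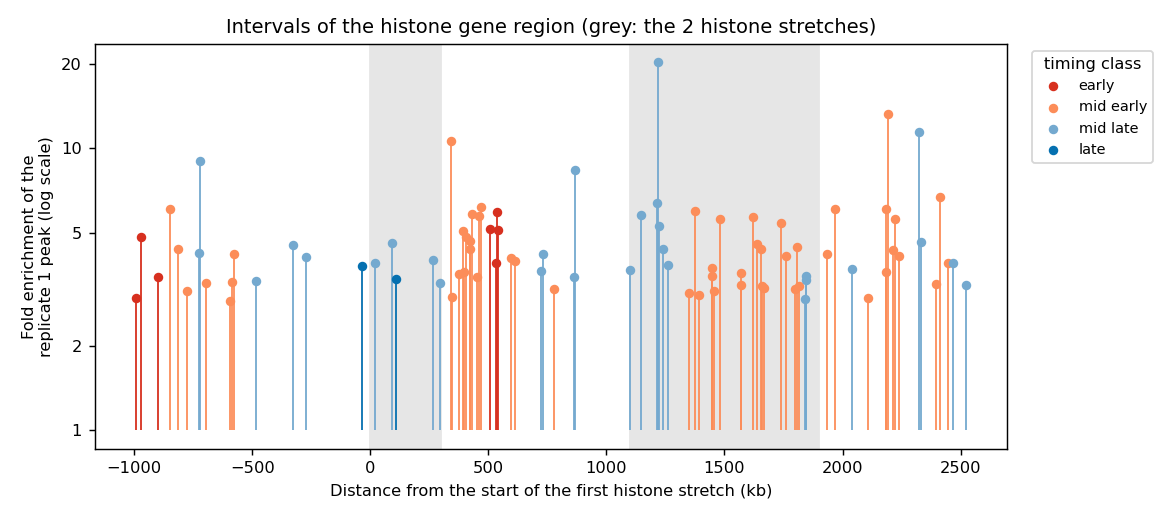
Each line is 1 interval, placed by the distance of its midpoint from the start of the first histone stretch (kb, x axis), with its height giving the fold enrichment of the replicate 1 peak (y axis, log scale) and its colour the timing class. The first histone stretch (left grey band) has 5 intervals, none above 4.63-fold, and the second (right grey band) has 29, with 1 at 20.2-fold.

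Windows of 100 kb show how these same intervals were spread, and add no separate support for the difference in density. The 3 windows of the first stretch held 2, 1 and 2 intervals. The 8 windows of the second held 2, 5, 3, 4, 2, 5, 3 and 5, in order of position. Of these 11 windows, 7 were below the median of 4 intervals over the 20505 windows of the genome that held any, 1 was at it and 3 were above, and none reached the upper quartile of 11. On chromosome 6 the median of such windows was 3, with 5 of the 11 below it, 2 at it and 4 above. The fullest window of the whole region lay outside the histone stretches, from 26.4 to 26.5 Mb, with 7 intervals. The emptiest were the last 2 windows of the part between, which held none. No window of a histone stretch was empty, against 2 of 8 in the part between, 1 of 10 in the left flank and 3 of 10 in the right. Empty windows were not counted for chromosome 6 or the genome. With so few windows and no such share beside them, these counts cannot be read as a trait of the histone stretches.

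**Figure D3:**
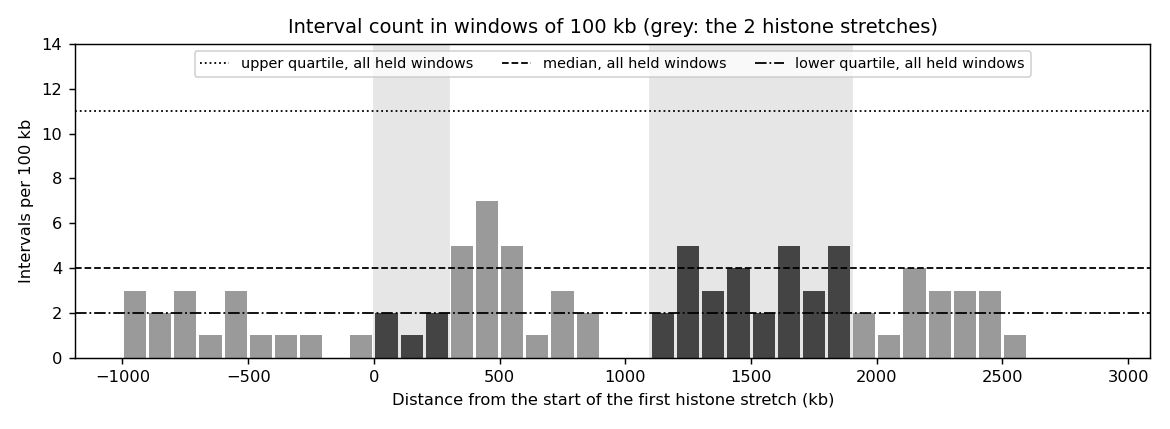
Number of intervals in each window of 100 kb (y axis) by distance from the start of the first histone stretch (kb, x axis), with dark bars in the histone stretches and lines at the lower quartile, median and upper quartile (2, 4 and 11) of all windows that hold an interval. Windows of the histone stretches hold 1 to 5 intervals, and the tallest bar, of 7, stands between them.

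Long gaps between neighbouring intervals lay in and beside the histone stretches and in the left flank. The longest between listed neighbours was 236 kb, in the left flank, where another was 157 kb. The right flank held no interval after 28521440, up to its end at 28900000. This open end is longer than 236 kb but has no listed neighbour on its far side, so it was not counted as a gap. The first histone stretch held a gap of 155 kb, from 26110075 to 26265263, which left 3 of its intervals on 1 side and 2 on the other. Of all gaps between neighbouring intervals, 1.93% were as long, and of those on chromosome 6, 3.74%. The second stretch was preceded by a gap of 235 kb, from 26865435 to 27100689 (1.06% of all gaps and 2.16% on chromosome 6 as long). Within the second stretch the median gap was 18.9 kb and the longest 88.9 kb. The median gap was 51.5 kb in the first stretch and 11.9 kb in the part between. It was 48.0 and 27.8 kb in the left and right flanks, 5.54 kb on chromosome 6 and 2.81 kb over all chromosomes.

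No interval of either histone stretch was in the very early or early class. The count was 0 of 34 (exact two-sided 95% binomial interval 0 to 10.3%; the 3 counts that a count of 0 allows would be 8.82%, a one-sided limit), against 40.2% of all intervals and 30.1% on chromosome 6. In the part between 4 of 23 intervals (17.4%) were early, and in the left flank 3 of 16. The right flank, like the histone stretches, had 0 of 17. The first histone stretch was the later of the 2. Its 5 intervals comprised 4 mid late and 1 late, so all 5 were in the mid late class or later, against 30.0% of all intervals. The second stretch had 19 mid early intervals (65.5%, exact 95% binomial interval 45.7% to 82.1%) and 10 mid late ones (34.5%). The part between had a like share of mid early intervals, 15 of 23 (65.2%).

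The classes changed along the region in single steps. Coming from the left flank, the class went from early at 25 Mb to late at 25962541 to 25963853, just before the first histone stretch. Across the first stretch it alternated between mid late and late, with the late interval at 26109789 to 26110074. It turned mid early at 26342047, at the start of the part between, and early from 26508875 to 26539130, where 4 intervals gave the earliest class of the region. It was mid late again from 26863520 to 27260015, a run of 9 intervals that crosses the border of the second stretch. The next 19 intervals, from 27348908 to 27815163, were all mid early, and the last 3, from 27841185 to 27847743, mid late. Over both stretches and the part between, 10 of 56 neighbouring pairs (17.9%) changed class, and none by 2 or more steps. With the flanks included 24.7% of pairs changed class, on chromosome 6 15.1% and on all chromosomes 11.5%. Neighbouring intervals mostly had the same class, so the counts by class rest on few independent runs.

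**Figure D4:**
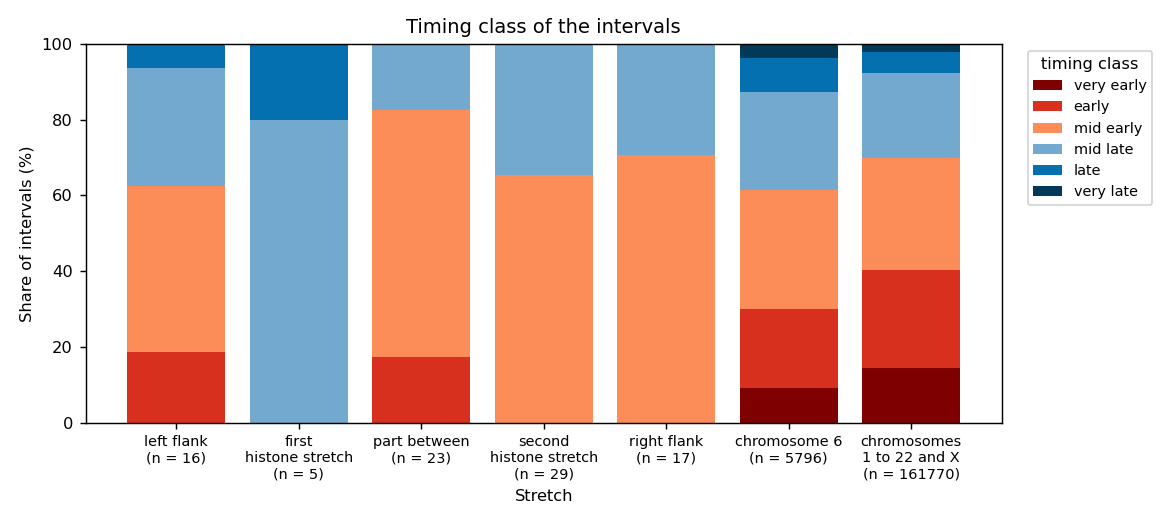
Share of intervals (in %, y axis) in each timing class (colours) for the 5 stretches, chromosome 6 and chromosomes 1 to 22 and X, with the number of intervals under each bar. The bars of both histone stretches hold no very early or early interval, and the first histone stretch holds only mid late and late ones.

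Intervals in the histone stretches were narrow. The 5 widths in the first stretch were 223, 137, 286, 141 and 183 bp in order of position, with a median of 183 bp. In the second the median was 325 bp (range 159 to 1444 bp). The median was 407 bp in the part between and 310.0 bp over both flanks, against 476 bp on chromosome 6 and 558 bp over all chromosomes. All 5 widths of the first stretch were below the lower quartile of all intervals, which was 294 bp. Over both histone stretches the median was 294 bp, which was 0.724 times that of the part between (0.528 to 1.12 from the exact 95% order-statistic interval of the histone median) and 0.950 times that of the flanks (0.694 to 1.47). Of the 34 intervals 2 (5.88%) were 1 kb or wider, against 26.9% of all intervals. In the part between 5 of 23 were that wide, and in both flanks 2 of 33 (6.06%), a share like that of the histone stretches. The intervals covered 0.323% of the first stretch, 1.49% of the second and 1.61% of the part between. They covered 0.694% of the left flank and 0.767% of the right, against 2.38% of chromosome 6.

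Enrichment was also low in most of these intervals. The fold is the authors' value for the whole replicate 1 peak that shares most bases with the interval. In order of position, the first stretch had folds of 3.92, 4.63, 3.43, 4.02 and 3.33. These 5 values lie in a narrow range, all below the median of all intervals, 4.73. The second stretch had a median of 3.78 (quartiles 3.26 and 5.31, range 2.93 to 20.2). The median was 4.40 in the part between, 4.17 over both flanks and 4.51 on chromosome 6. Over both histone stretches the median of 3.82 was 0.866 times that of the part between (0.774 to 1.01) and 0.915 times that of the flanks (0.818 to 1.07). Of the 34 intervals 8 (23.5%) reached 5-fold, against 44.4% of all intervals, and all 8 lay in the second stretch. In the part between 9 of 23 reached it and in the flanks 8 of 33. The median −log10 q was 3.26 in the first stretch, 2.96 in the second and 4.62 in the part between, against 5.21 over all chromosomes.

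**Figure D5:**
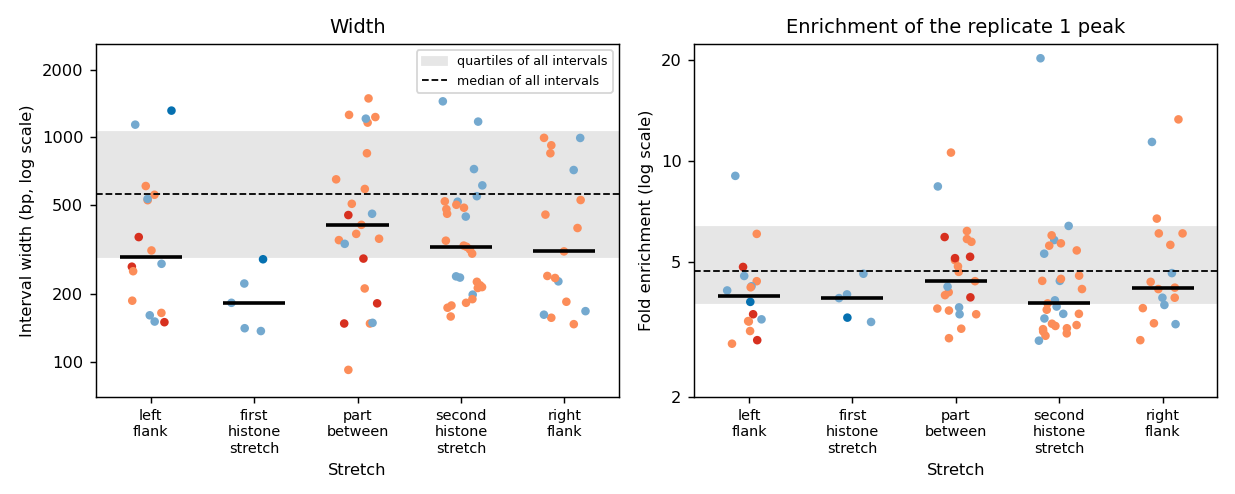
Width (bp) and fold enrichment of each interval (points, coloured by timing class as in the other plots, log scales) in the 5 stretches, with black bars at the medians and the quartiles and median of all intervals as a grey band and dashed line. The medians of both histone stretches, 183 and 325 bp and 3.92 and 3.78-fold, lie below the dashed lines.

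Within a single timing class, how the histone stretches compared with the part between and the flanks depended on the class and the measure. The 19 mid early intervals of the second histone stretch had a median width of 303 bp (quartiles 202 and 401) and a median fold of 3.62 (3.22 and 4.52). The 15 mid early intervals of the part between had medians of 505 bp and 4.40-fold, and the 19 of both flanks 313 bp and 4.21-fold, with 3.35-fold for the 7 of the left flank. On chromosome 6 the mid early class had medians of 497 bp and 4.57-fold, and over all chromosomes 602 bp and 4.86-fold. The 14 mid late intervals of both histone stretches had medians of 342 bp and 3.97-fold. The 4 of the part between had 396 bp and a like fold of 3.96, and the 10 of both flanks 250.5 bp and 4.19-fold. On chromosome 6 the mid late class had medians of 449 bp and 4.46-fold, and over all chromosomes 537 bp and 4.68-fold. In the first stretch the 4 mid late intervals had medians of 162 bp and 3.97-fold, and in the second the 10 had 531 bp and 4.13-fold. Their median width in the second stretch was above that of the class on chromosome 6 but not above that over all chromosomes. These 10 include 3 neighbours of 1173, 1444 and 546 bp, described next.

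A single group of 3 neighbours stood out from the other histone stretch intervals. The interval from 27218480 to 27219923, mid late and 1444 bp wide, had a 20.2-fold enrichment with a −log10 q of 60.5, and was the widest and the most enriched of the 34. Over all chromosomes 0.879% of intervals had a fold as high, and 7.16% reached 10-fold, which 1 of the 34 did. Its neighbour from 27214943 to 27216115 was 1173 bp wide at 6.42-fold, the second in fold and in width. The neighbour on the other side, from 27220652 to 27221197, was 546 bp wide at 5.31-fold. The 3 span 6.25 kb and hold 24.5% of all bases covered by intervals in the histone stretches. They lie in the window from 27.2 to 27.3 Mb, and which genes of the second run lie beside them was not analysed. Without them, a choice made after their values were seen, the other 31 intervals had a highest fold of 6.02, a median fold of 3.70 and a median width of 240.0 bp, and 5 reached 5-fold. The third by fold in the second stretch, from 27374707 to 27375022, was 316 bp wide at 6.02-fold. The third by width, from 27847023 to 27847743, was 721 bp wide at 3.41-fold.

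In the first stretch the most enriched interval, from 26093166 to 26093302, was 137 bp wide at 4.63-fold, and the next, from 26265264 to 26265404, was 141 bp wide at 4.02-fold. The third, from 26021710 to 26021932, had 3.92-fold and 223 bp. The widest was the late interval, of 286 bp at 3.43-fold, and the third by width was that from 26297081 to 26297263, of 183 bp at 3.33-fold. In this stretch the most enriched interval was thus the narrowest. The part between was led by a 10.6-fold interval of 353 bp from 26342047 to 26342399, its first interval after the first histone stretch. Next came its last, from 26864979 to 26865434, with 8.41-fold and 456 bp, and then that from 26468622 to 26469209 with 6.20-fold and 588 bp. Its widest were those from 26597014 to 26598501 (1488 bp, 4.08-fold), 26376868 to 26378124 (1257 bp, 3.60-fold) and 26392665 to 26393893 (1229 bp, 5.08-fold). In the flanks the highest fold was 9.04 on the left and 13.3 on the right, and the widest intervals were 1313 and 993 bp.

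Peaks of both libraries covered much of each interval in the first stretch and a more variable part in the second. The covered share was 75.3%, 72.3%, 76.2%, 75.9% and 60.7% of the bases in the first stretch, in order of position. In the second its median was 62.3%, and over all chromosomes it was 60.0%. It fell under 25% in 8 of the 34 intervals. These include the last 3 of the second stretch, with 24.6%, 6.07% and 20.1% and folds of 2.93, 3.52 and 3.41. In the 20.2-fold interval it was 82.3%. The shared peak list held 5 pieces in the first stretch, 24 in the part between and 29 in the second, each overlapping an interval. In the histone stretches each listed replicate 1 peak gave 1 piece, so none was cut by replicate 2. Between the stretches 1 of 23 was cut, and on chromosome 6 10.6% were. The flanks were like the histone stretches, with 0 of 16 cut on the left and 1 of 17 on the right.

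A smaller share of the replicate 1 peaks was shared with replicate 2 here than on chromosome 6 as a whole. Replicate 1 peaks are numbered along the chromosome, so missing numbers count peaks that are not in the shared list, if numbering was consecutive. Numbers were counted from the first to the last listed peak of each stretch. Both end numbers are thus listed by construction, which makes the shares too high, most of all where few numbers are spanned. The binomial intervals do not allow for this. In the first stretch 5 of 13 numbers were listed (38.5%, exact 95% binomial interval 13.9% to 68.4%), in the part between 23 of 47 (48.9%, 34.1% to 63.9%) and in the second stretch 29 of 54 (53.7%, 39.6% to 67.4%). Over both stretches and the part between it was 57 of 117 (48.7%, 39.4% to 58.1%), against 66.6% on chromosome 6 and 71.3% over all chromosomes. These intervals cover counting error only, and the difference was not tested. The flanks had 61.5% (40.6% to 79.8%) on the left and 68.0% (46.5% to 85.1%) on the right. The gap of 155 kb inside the first stretch contained 5 numbers that were not listed, and the gap of 235 kb before the second contained 2. Over both stretches and the part between, the median fold (4.02) and −log10 q (3.56) were also below those of chromosome 6 (4.51 and 4.61). Among the stretches the order differed. The part between had a higher median fold and −log10 q (4.40 and 4.62) than the second stretch (3.78 and 2.96) but a smaller listed share. Any link of the share with these values was not tested.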

How the data were processed

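Nascent strand DNA of 2 U2OS libraries was sequenced. BWA, MACS2 and hg19 are named by the submitters' processing notes. Their versions and settings, any control library and the rule behind the timing classes are not stated in the sources used here. The authors deposited a shared peak list, without a header, whose fold enrichment (a ratio), −log10 p and −log10 q have 1 value per peak name; the names carry the library name of replicate 1, so these values are taken as those of whole replicate 1 peaks. The score in the files deposited by the authors was not used. The other 6 deposited lists hold intervals, 1 list per timing class, with a constant score.

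Each interval name was counted once and placed by its midpoint, and took the fold of the replicate 1 peak sharing most bases, at least 1 bp. No interval crossed a border, and none of the 57 stood on 2 lines. Exact intervals are at 95%: Poisson for counts, Clopper-Pearson for shares, order-statistic for medians. No test was made. Genes and intervals named are the listed histone genes, other genes only for gene order, and in each stretch the 3 most enriched and 3 widest intervals (for the flanks, only the first of each). The stretches, gene list and motifs were chosen with earlier results of these data known. Stretch functions were checked on simulated intervals. Computations ran in Python 3.11.15 with scipy 1.17.1, pandas 2.3.3 and numpy 2.4.6.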

Additional observations from a re-analysis of the deposited data

How the results depend on the processing

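Of 62 values under other settings, 54 stayed within the range set for the main value. For density this range was the exact interval of the ratio. For medians it was the interval of the histone median, with the other median held fixed. For differences in share it joined opposite limits of the exact intervals of the 2 groups, and is not itself an exact interval. Of these 53 kept their direction, and 1, the difference in the share of very early and early intervals against flanks of 500 kb, turned to 0. The 54 include all values for any overlap with a stretch, every line counted, merging within 100 bp, flanks of 500 kb and the highest overlapping fold. Apart from the flanks of 500 kb, these settings could not change any value. No interval crossed a border, stood on 2 lines, overlapped several replicate 1 peaks or lay within 100 bp of another. Their values are therefore no evidence of stability. With a −log10 q of at least 5, 8 intervals remained in the histone stretches, 10 in the part between and 9 in the flanks. The density over the part between then turned to 0.582 and the ratio of widths to 1.19. With intervals of at least 200 bp the width over the flanks was 0.660. For the first histone stretch alone the density was 0.580 of the part between and 1.01 of the flanks, and the width 0.450 and 0.590. For the second alone the width over the flanks was 1.05. The cause was not tested, beyond the fewer intervals these settings leave. The median fold of the histone stretches stayed below that of the part between (0.775 to 0.991) and of the flanks (0.887 to 0.945) in all alternatives run. The difference in the share of very early and early intervals ranged from −30.0 to −11.1 percentage points against the part between and from −11.1 to 0 against the flanks. The alternatives on gene starts, and the planned GC content of intervals, were not run, since no annotation or genome of hg19 was used here. No paired analysis was possible because both libraries are 1 group and enter as 1 intersected set, so neither could be left out. Unknown read depth limits how far small differences can be read.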
